A study of Mus musculus with 16 samples.

Results

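The reactive astrocyte genes described here are 8 genes of reactive gliosis, the response of glia to injury or inflammation: Gfap, Vim, Serpina3n, Lcn2, Cd44, Osmr, Timp1 and S1pr3. They were taken by symbol from the gene rows of every library, and all 8 were found once among 39179 genes and passed the filter on low counts. Total RNA had been sequenced from neurons isolated from adult TERT-AD mice of strain B6.129S6.SvEvTac, in which Tert, the catalytic subunit of telomerase, was to be activated. The 4 groups were hippocampal neurons of mice given tamoxifen, hippocampal neurons of controls, cortical neurons of mice given tamoxifen and cortical neurons of controls, and all carried the TERT-AD label. The treatment protocol names tamoxifen or a vehicle. The sources used here do not say how old the mice were in weeks, which promoter or Cre drove the activation, how the neurons were isolated or which libraries share an animal. Each group had 4 libraries, and libraries 1 and 2 as well as 3 and 4 of every group differed less from each other than from the rest, so their counts were added, which left 8 samples, 2 per group, called A and B. The p-values below measure only the spread between these samples, which may be partly technical.

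Astrocytes support synapses, take up transmitter and line the blood vessels of the brain. After injury, infection or cytokine exposure they enlarge their intermediate filament network and secrete acute phase proteins, a state named reactive astrogliosis. Gfap and Vim encode the filaments, Serpina3n, Lcn2 and Timp1 encode secreted proteins, and Cd44, Osmr and S1pr3 encode receptors at the cell surface. Cytokines of the interleukin 6 family act through gp130 and the transcription factor STAT3 and are known inducers of this program. Hippocampal astrocytes are known to hold more Gfap than those of cortical grey matter, so the comparison of regions belongs beside that of treatment.

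The samples held 83527470 to 108293362 counts in genes. Although labelled as neurons, they held much glial RNA: 8 neuronal markers summed to 5394 to 9965 CPM over the samples, 16 astrocyte identity markers to 7901 to 13910 CPM and 8 oligodendrocyte markers to 24090 to 72650 CPM. CPM here are counts scaled so that the genes of a sample sum to 1000000. Cortical tamoxifen sample B stood apart, with the lowest summed CPM of endothelial and oligodendrocyte markers and the highest of neuronal ones. Mitochondrial genes took 20.1 to 20.7% of the counts of its libraries, while the remaining cortical libraries had 29.7 to 32.1%. Markers of choroid plexus and ependyma summed to 50.5 and 8137 CPM in hippocampal tamoxifen samples, 17170 and 8051 CPM in hippocampal controls, 5047 and 11.1 CPM in cortical tamoxifen samples and 942 and 9.2 CPM in cortical controls. In bulk samples, fewer cells of a type and less RNA per cell cannot be told apart.

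Tests were edgeR's quasi-likelihood test on the counts of the 8 samples, with Benjamini-Hochberg adjustment over 18074 genes and a threshold of 0.05. Its fold changes are on the TMM scale, which adjusts for composition. Scaling to total counts instead moved the median of all genes by 0.38 on the log2 scale in the region comparison of controls, by 0.15 in that of tamoxifen samples, by 0.21 in the cortical and by -0.03 in the hippocampal treatment comparison. With 2 samples against 2, an exact permutation test cannot go below a two-sided p of 0.333, so single levels carry no permutation call.

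Per base of exon, the members spanned a wide range. Gfap averaged 67.2 RPKM over the 8 samples (reads per kilobase of exon, scaled to library size, as deposited) and ranked 277th of the 18074 genes tested. Vim, at 19.8 RPKM, ranked 1035th. Serpina3n at 1.91 RPKM and S1pr3 at 1.09 RPKM ranked 7645th and 9835th. The other 4 lay low: Osmr at 0.386, Cd44 at 0.193, Timp1 at 0.130 and Lcn2 at 0.097 RPKM, the last ranking 15664th. Within every group Gfap came first and Vim second. In cortical controls S1pr3 at 0.697 ± 0.067 RPKM and Serpina3n at 0.668 ± 0.10 RPKM (SD, n = 2 each) did not differ beyond their spread, nor in cortical tamoxifen samples did Timp1 at 0.156 ± 0.017, Cd44 at 0.151 ± 0.015 and Lcn2 at 0.143 ± 0.032 RPKM.

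In mm10, Gfap (ENSMUSG00000020932) lies on the minus strand of chromosome 11 at 102887336 to 102900912. Serpina3n (ENSMUSG00000021091) lies on the plus strand of chromosome 12 at 104406729 to 104414329. Lcn2 (ENSMUSG00000026822) occupies 32384633 to 32387797 and Cd44 (ENSMUSG00000005087) 102811141 to 102901665, both on the minus strand of chromosome 2, where Vim (ENSMUSG00000026728) lies on the plus strand at 13573927 to 13582826. Osmr (ENSMUSG00000022146) lies on the minus strand of chromosome 15 at 6813577 to 6874969 and S1pr3 (ENSMUSG00000067586) on the plus strand of chromosome 13 at 51408618 to 51422797. Timp1 (ENSMUSG00000001131) lies on the plus strand of the X chromosome at 20870166 to 20874735, inside the span of the neuronal gene Syn1 on the opposite strand. The pair shares 0 exon bases in GENCODE M21, but Syn1 had 17142 to 55815 counts per sample and Timp1 12 to 24. No strand setting of the counting is stated, so reads of the pair cannot be told apart. The lncRNA Gm26668, antisense to Gfap, had 15 to 62 counts per sample, against 18798 to 81193 for Gfap.

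The sequences before the start sites are shown for the members on which the results turn: Gfap and Serpina3n, which passed the test between regions, and Cd44 and Lcn2, which lay higher in tamoxifen samples of both regions without passing the test. They come from RefSeq's GRCm38.p6 annotation and run 5′ to 3′ on the strand of the gene. Those of Gfap, Serpina3n and Cd44 end at the base before the RefSeq start. For Gfap and Lcn2 that start lies inside the gene span given above. For Lcn2 only the longest stretch of the window outside annotated exons is printed. It stops short of the start, as the window runs on to base 32387740.
Gfap, minus strand, chr11:102897201-102897450: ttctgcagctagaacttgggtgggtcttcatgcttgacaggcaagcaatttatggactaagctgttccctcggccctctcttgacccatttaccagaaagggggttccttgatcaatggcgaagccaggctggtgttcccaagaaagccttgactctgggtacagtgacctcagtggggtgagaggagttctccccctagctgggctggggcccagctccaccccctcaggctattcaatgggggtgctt
Serpina3n, plus strand, chr12:104406458-104406707: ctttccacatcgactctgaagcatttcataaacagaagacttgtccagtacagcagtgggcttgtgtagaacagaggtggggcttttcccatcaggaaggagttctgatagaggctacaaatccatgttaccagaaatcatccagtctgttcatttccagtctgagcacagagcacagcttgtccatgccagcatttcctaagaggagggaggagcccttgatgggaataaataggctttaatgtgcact
Cd44, minus strand, chr2:102901666-102901915: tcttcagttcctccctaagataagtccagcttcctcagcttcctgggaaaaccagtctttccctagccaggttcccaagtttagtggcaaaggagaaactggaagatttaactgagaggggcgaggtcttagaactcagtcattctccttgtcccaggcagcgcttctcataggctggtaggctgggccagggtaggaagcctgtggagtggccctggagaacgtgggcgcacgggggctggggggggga
Lcn2, minus strand, chr2:32387798-32387850: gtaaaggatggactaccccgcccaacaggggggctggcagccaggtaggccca

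Of the 5 motifs searched on both strands in the 250 bases before each start, none matched in these 4 stretches, so no letter is in capitals. The STAT motif TTCNNNGAA was in 7.02% of 32841 RefSeq promoters and in 0 of the 8 members, and the AP-1 motif TGANTCA in 6.75% and 0 of 8. The C/EBP motif TTGCNNAA was in 9.57% of promoters and in 1 member, Lcn2, as TTGCTCAA. That match lies 216 to 209 bases before the start, outside the stretch printed for Lcn2. The NF-kappaB motif was in 7.25% of promoters and matched 4 times in Vim alone, with 3 of the matches overlapping each other, and TATAAA was in 12.4% and also in Vim alone, at 32 to 27 bases before the start. These are matches of letters in a window and nothing is drawn from them about binding.

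Gfap, the main filament protein of astrocytes, stood at 660 and 699 CPM in hippocampal tamoxifen samples A and B and at 663 and 750 CPM in hippocampal controls. It stood at 232 and 188 CPM in cortical tamoxifen samples and at 222 and 239 CPM in cortical controls. Every hippocampal sample was above every cortical one, and the treatments overlapped within each region. Its log2 fold change was 1.23 (SE 0.254, edgeR adjusted p = 0.0414) in hippocampal against cortical controls with 2 of 2 hippocampal samples above both cortical ones. On the TMM scale of that fit the mean CPM of these groups had a ratio of 2.35, and without that scaling 3.06. The call ended when any 1 of the 4 control samples was left out, at edgeR adjusted p of 0.141 to 0.273.

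Vim, the filament protein that Gfap pairs with in reactive astrocytes and that endothelial cells also make, stood at 97.4 and 85.1 CPM in hippocampal tamoxifen samples and at 85.2 and 97.0 CPM in hippocampal controls. In cortical tamoxifen samples it stood at 61.7 and 49.0 CPM and in cortical controls at 64.4 and 60.6 CPM. Within each treatment both hippocampal samples were above both cortical ones. Across treatments that held for CPM, while on the TMM scale hippocampal control A at 74.6 was level with cortical tamoxifen A at 74.7. In controls the log2 fold change between regions was 0.16 (SE 0.246, edgeR adjusted p = 0.705).

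Serpina3n, a secreted serine protease inhibitor of the acute phase, stood at 8.96 and 9.64 CPM in hippocampal tamoxifen samples and at 9.25 and 9.81 CPM in hippocampal controls. It stood at 2.37 and 5.86 CPM in cortical tamoxifen samples and at 2.11 and 2.65 CPM in cortical controls. The hippocampal samples lay together, and in the cortex tamoxifen sample B alone lay well above the rest. Its log2 fold change between the regions of controls was 1.62 (SE 0.289, edgeR adjusted p = 0.0334). The mean CPM of these groups had a ratio of 3.07 on the TMM scale and of 4.01 without that scaling, and leaving out any 1 control sample ended this call too. Of 10 paralogs in the Serpina3 cluster, only Serpina3g passed the filter on low counts, with at most 62 counts in a sample against 198 to 1062 for Serpina3n. How reads shared between paralogs were counted was not tested.

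Lcn2, lipocalin 2, a secreted iron carrier of the acute phase, was scarce. It had 64 and 64 counts in hippocampal tamoxifen samples (0.609 and 0.591 CPM) and 10 and 31 counts in hippocampal controls (0.096 and 0.286 CPM). Cortical tamoxifen samples had 53 and 43 counts (0.635 and 0.431 CPM) and cortical controls 2 and 18 (0.021 and 0.213 CPM). All 4 tamoxifen samples were above all 4 controls, also across regions. The libraries gave the same order within each region: 27 to 37 counts in hippocampal tamoxifen libraries and 3 to 16 in hippocampal control libraries, and 21 to 30 counts in cortical tamoxifen libraries and 1 to 15 in cortical control libraries. Tamoxifen over control gave a log2 value of 1.66 (SE 0.920, edgeR adjusted p = 1) in the hippocampus and of 2.06 (SE 0.970, edgeR adjusted p = 0.83) in the cortex, with 2 of 2 samples higher in each. Neither passed the test. The control samples also spread, and without control sample B the fold change was 2.70 in the hippocampus and 4.52 in the cortex, while without control sample A it was 1.06 and 1.16 there.

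Timp1, a secreted inhibitor of metalloproteinases, had 12 and 17 counts in hippocampal tamoxifen samples (0.114 and 0.157 CPM) and 23 and 17 in hippocampal controls (0.220 and 0.157 CPM). It had 18 and 24 counts in cortical tamoxifen samples (0.215 and 0.241 CPM) and 15 and 21 in cortical controls (0.154 and 0.248 CPM). It did not pass edgeR's test in any comparison.

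Cd44, a receptor for hyaluronan, stood at 2.82 and 3.82 CPM in hippocampal tamoxifen samples and at 2.64 and 2.11 CPM in hippocampal controls. It stood at 1.69 and 1.73 CPM in cortical tamoxifen samples and at 1.08 and 1.12 CPM in cortical controls. Tamoxifen samples were above controls within each region, and hippocampal samples above cortical ones within each treatment. Across treatments hippocampal control B at 1.94 was below cortical tamoxifen A at 2.04 on the TMM scale. Tamoxifen over control stood at 0.53 on the log2 scale (SE 0.276, edgeR adjusted p = 1) in the hippocampus and at 0.46 (SE 0.281, edgeR adjusted p = 0.83) in the cortex. It did not pass in either region. Taken library by library the hippocampal treatments overlapped, at 2.66 to 4.04 CPM with tamoxifen and 2.09 to 2.68 CPM in controls, while the cortical ones did not.

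Osmr, the receptor subunit for oncostatin M, stood at 10.4 and 10.1 CPM in hippocampal tamoxifen samples and at 8.48 and 11.6 CPM in hippocampal controls. In cortical tamoxifen samples it stood at 4.93 and 4.25 CPM and in cortical controls at 5.73 and 5.12 CPM. The cortical tamoxifen samples were both below the cortical controls, at -0.39 on the log2 scale (SE 0.260, edgeR adjusted p = 0.83). S1pr3, a receptor for sphingosine 1-phosphate, stood at 10.7 and 9.80 CPM in hippocampal tamoxifen samples and at 9.01 and 11.9 CPM in hippocampal controls. It stood at 4.62 and 6.55 CPM in cortical tamoxifen samples and at 5.68 and 5.06 CPM in cortical controls. Both receptors were near 10 CPM in the hippocampus and near 5 CPM in the cortex, with no gap between treatments beyond the spread for S1pr3.

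**Figure D1:**
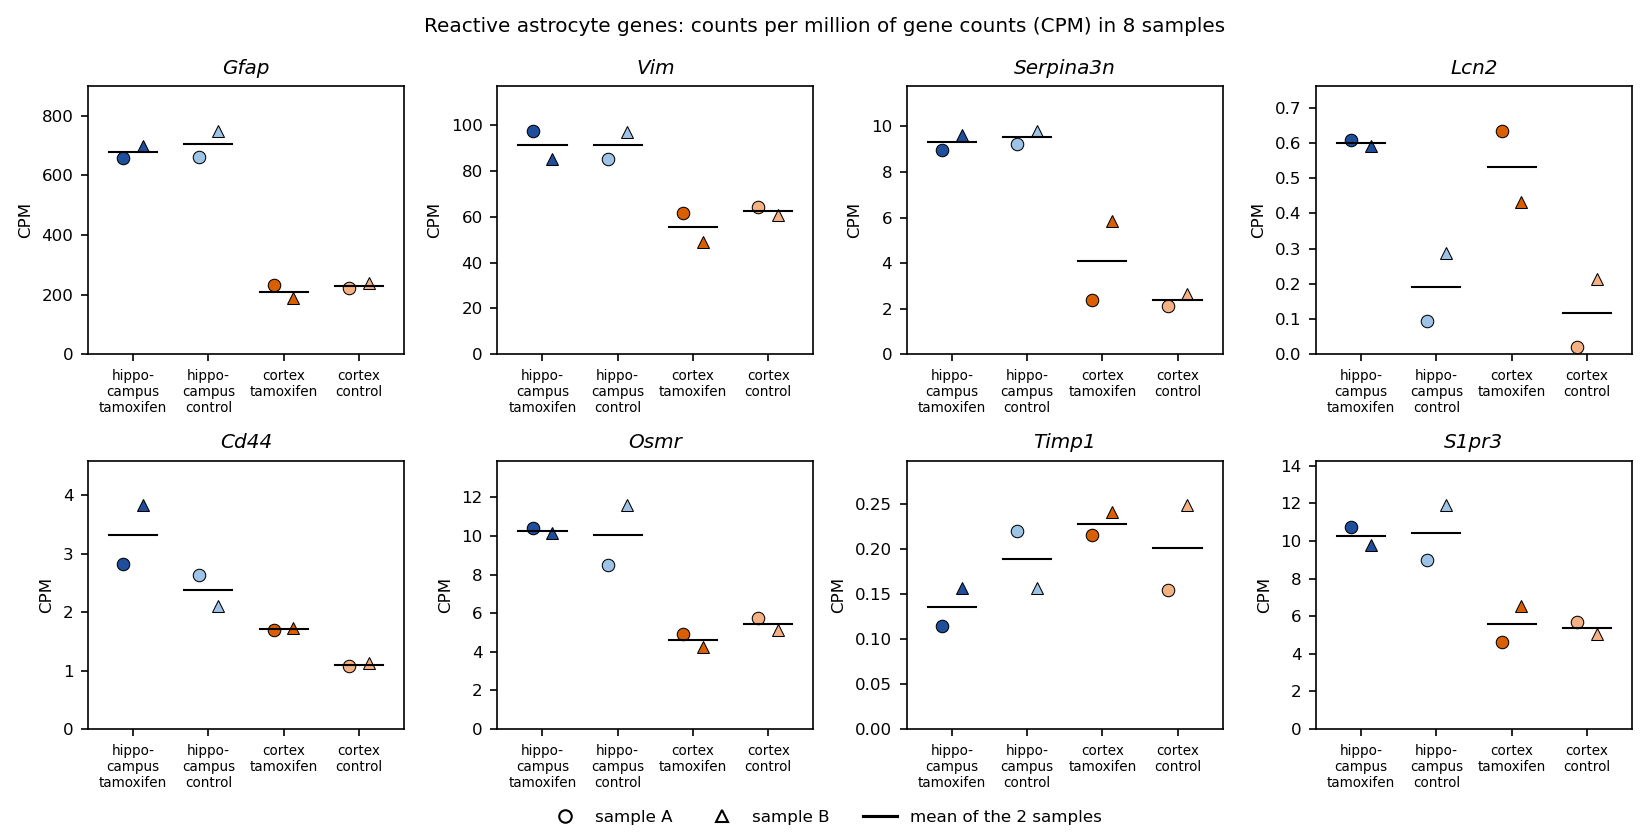
Level in CPM (linear axes from 0) of the 8 reactive astrocyte genes in each of the 8 samples, by group. Circles are sample A, triangles sample B and bars their mean. Within each treatment Gfap, Vim, Serpina3n, Cd44, Osmr and S1pr3 were higher in both hippocampal samples than in both cortical ones. By CPM so were 62.1% of all genes in controls and 29.4% in tamoxifen samples. Lcn2 was higher in every tamoxifen sample than in every control.

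Between the hippocampus and the cortex of controls, 2 of the 8 members passed the test, Gfap and Serpina3n, both higher in the hippocampus. Of all genes 6.19% passed, 2.71% as higher and 3.48% as lower. Scaled to total counts, 1910 genes passed as higher and 154 as lower, in place of 489 and 629 on the TMM scale, and 5 members passed, all higher. At an unadjusted p under 0.05 there were 4 members, against 27.6% of all genes, and DESeq2 called 3 members and 17.7% of all genes. The fitted values of 7 of 8 members were positive, against 50.1% of genes, with a member median of 0.55 and a median of 0.00 over all genes. S1pr3 at 0.58 (adjusted p = 0.0932), Cd44 at 0.72 (adjusted p = 0.154) and Osmr at 0.51 (adjusted p = 0.249) did not pass edgeR's test, nor did Lcn2 at 0.36 and Timp1 at -0.48. Groups did not overlap for 6 members on the CPM scale, all higher in the hippocampus, as for 62.1% of all genes, and on the TMM scale for the same 6, as for 34.6% higher and 33.4% lower among all genes. The calls rest on all 4 samples: without any 1 of them the adjusted p was 0.141 to 0.273 for Gfap and 0.119 to 0.236 for Serpina3n, and 0 to 2 of all genes passed. The fold changes moved less, from 1.10 to 1.36 for Gfap and from 1.44 to 1.82 for Serpina3n.

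In tamoxifen samples the same comparison of regions called 0 of the 8 members by edgeR, where 1.12% of all genes passed, 0.426% as higher and 0.692% as lower. At an unadjusted p under 0.05 there were 5 members and 21.6% of all genes, and DESeq2 called 4 members and 10.8% of all genes. Scaled to total counts, 22 genes passed as higher and 4 as lower, in place of 77 and 125. By edgeR, Gfap stood at 1.49 on the log2 scale (SE 0.255, edgeR adjusted p = 0.0508) and Serpina3n at 1.09 (SE 0.284, edgeR adjusted p = 0.0958). Osmr at 0.97, Cd44 at 0.78, S1pr3 at 0.74 and Vim at 0.51 were also positive, and Timp1 was at -0.90. Values were positive for 6 of 8 members and for 47.5% of all genes, and the member median was 0.76, against -0.03 over all genes. Hippocampal samples were above the cortical ones without overlap for the same 6 members as in controls, on the CPM scale (29.4% of all genes) and on the TMM scale (22.4%), and Timp1 was below them (8.63% of all genes on the CPM scale and 24.1% on the TMM scale). The cortical tamoxifen samples differed from each other, and the fit without sample A called 4 members and 21.7% of all genes, and that without sample B 2 members and 1.85% of all genes. Gfap and Serpina3n kept a positive value in both region comparisons under every alternative run.

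**Figure D2:**
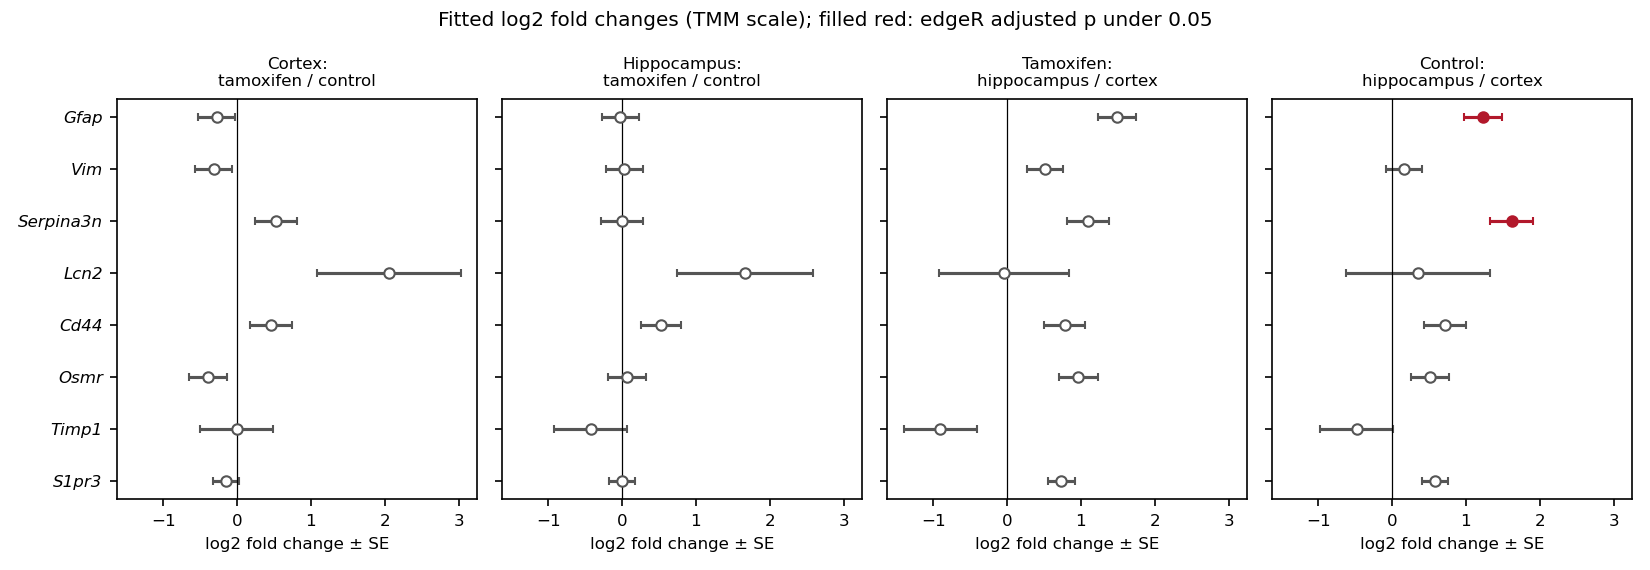
Fitted log2 fold changes of the 8 members (edgeR, TMM scale) with standard errors as bars, in the 2 treatment comparisons and the 2 region comparisons. Only Gfap at 1.23 and Serpina3n at 1.62 in controls are past the threshold, and Lcn2 has the longest error bars.

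Tamoxifen against control called 0 of 8 members in the hippocampus, where 0% of all genes passed, and 0 of 8 in the cortex, where again 0% passed. At an unadjusted p under 0.05 the counts were 0 of 8 members in either region, against 3.61% of all genes in the hippocampus and 4.97% in the cortex. DESeq2 and limma voom on the same samples also called 0 members, and DESeq2 called 0.0498% of all genes in the hippocampus and 0.0443% in the cortex. Values were positive for 5 of 8 members in the hippocampus (48.7% of all genes) and for 3 of 8 in the cortex (55.4%). Hippocampal log2 fold changes other than those of Lcn2, Cd44 and Timp1 were between -0.02 and 0.06. Cortical values were -0.28 for Gfap, -0.32 for Vim and 0.53 for Serpina3n, and each of these hangs on 1 sample. Without cortical tamoxifen sample A they were -0.71, -0.77 and 0.88 with edgeR adjusted p of 0.0392, 0.0244 and 0.0361, and 2014 genes passed, a fit in which sample B, the one that stood apart, was alone in its group. Without sample B they were 0.05, 0.03 and 0.04. The part of that sample's makeup in these values was not tested.

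The difference of the tamoxifen effects, hippocampus minus cortex, called 0 of 8 members and 0% of all genes, with 0 members and 5.43% of genes at an unadjusted p under 0.05, and DESeq2 called 0 members and 0.0498% of genes. Values were positive for 5 of 8 members and for 45.8% of genes on the TMM scale. Scaled to total counts they were positive for 3 of 8 members, but the median of all genes was then -0.28, against -0.04 on the TMM scale. Member values ran from -0.53 for Serpina3n (SE 0.399) to 0.46 for Osmr (SE 0.366), with adjusted p of 0.928 to 0.992. For Lcn2 the difference was -0.40 (SE 1.31) and for Cd44 0.07 (SE 0.394).

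Lcn2 and Cd44 were the only 2 of the 8 members whose tamoxifen samples were all above the controls in both regions. That held on the CPM scale, where 2.82% of all genes did the same, and on the TMM scale, where 2.98% did. Within a region the share of genes so separated as higher was 14.6% in the hippocampus and 20.8% in the cortex by CPM, and 21.1% and 16.2% on the TMM scale. Lower with tamoxifen without overlap were Timp1 in the hippocampus (23.6% of genes by CPM), which overlapped on the TMM scale (18.9%), and Osmr in the cortex (6.29% by CPM and 14.9% on the TMM scale), joined on the TMM scale by S1pr3. The mean of the effects of both regions, a comparison added after these values were seen, was 1.86 for Lcn2 (SE 0.668, edgeR unadjusted p = 0.027) and 0.49 for Cd44 (SE 0.197, edgeR unadjusted p = 0.0397). These were the 2 members at an unadjusted p under 0.05, as were 3.62% of all genes, and values were positive for 3 of 8 members and 52.6% of genes. Neither passed after edgeR's adjustment (adjusted p = 0.961 each, where 0.0111% of genes passed, all of them lower), and DESeq2 called 0 members and 0.0775% of genes. S100a8 and S100a9, genes of neutrophils, cells known to hold much lipocalin 2, were separated in the same way as Lcn2. S100a8 stood at 0.732 and 0.526 CPM in hippocampal tamoxifen samples and 0.411 and 0.212 CPM in hippocampal controls, and at 0.658 and 0.641 CPM in cortical tamoxifen samples and 0.318 and 0.177 CPM in cortical controls. S100a9 stood at 1.52 and 1.13 CPM in hippocampal tamoxifen samples and 0.946 and 0.342 CPM in hippocampal controls, and at 1.02 and 1.16 CPM in cortical tamoxifen samples and 0.658 and 0.355 CPM in cortical controls. Both were higher in tamoxifen samples without overlap in each region, and like Lcn2 did not pass (edgeR adjusted p = 1 in the hippocampus and 0.83 in the cortex). S100a8 and S100a9 were picked out after their values were seen. The other leukocyte markers tested had negative values in the hippocampus: Ptprc (-0.38), Cd52 (-0.17), Lyz2 (-0.71) and Mrc1 (-0.60). In the cortex they stood at -0.14, 0.03, -0.02 and -0.13 in the same order. The neutrophil granule gene Ngp had 0 to 4 counts per sample. All 8 leukocyte markers together summed to 37.2 to 38.3 CPM in hippocampal tamoxifen samples and 43.4 to 63.7 CPM in hippocampal controls, and to 19.7 to 20.4 CPM in cortical tamoxifen samples and 15.5 to 19.7 CPM in cortical controls. The part of neutrophils or any other cell type in the Lcn2 and Cd44 values was not tested.

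The members were also set against the astrocyte markers rather than all counts. Per 1000 counts of the 16 astrocyte identity markers, Gfap had 67.3 ± 5.35 counts in hippocampal controls and 22.1 ± 0.474 in cortical controls (SD, n = 2 each), a ratio of 3.05. Serpina3n had 0.908 ± 0.0308 and 0.227 ± 0.0294 counts in the same groups, a ratio of 3.99. This measure does not depend on the scaling of libraries but on the markers, and by it 60.9% of all genes were higher in hippocampal controls without overlap. The 16 markers themselves summed to 10440 to 10550 CPM in hippocampal controls and 10200 to 10670 CPM in cortical controls. On the TMM scale they did not overlap, at 9138 to 9736 in hippocampal and 11780 to 12720 in cortical controls. Of these markers 0 of 16 passed edgeR's test between them. Of the 16, 3 had an unadjusted p under 0.05 (27.6% of all genes) and 1 was called by DESeq2 (17.7% of all genes).

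In tamoxifen samples Gfap had 53.8 ± 9.02 such counts in hippocampal and 24.2 ± 7.35 in cortical samples (SD, n = 2 each), a ratio of 2.22. The cortical samples spread widely, at 29.4 (A) and 19.0 (B), and whether this ratio differs from that of controls was not tested. By edgeR the Gfap value between regions was not smaller, at 1.49 with tamoxifen and 1.23 in controls on the log2 scale. By the marker measure 8.15% of all genes were higher in hippocampal tamoxifen samples without overlap and 48.5% lower. The astrocyte markers themselves differed in tamoxifen samples, at 11620 to 13910 CPM in hippocampal and 7901 to 9927 CPM in cortical ones. Of the 16 identity genes 2 passed between hippocampal and cortical tamoxifen samples, both higher in the hippocampal ones. Gja1, which encodes the main connexin of astrocyte gap junctions, stood at 1.15 on the log2 scale (SE 0.129, edgeR adjusted p = 0.0303). Gjb6, another connexin gene, stood at 0.75 (SE 0.114, edgeR adjusted p = 0.043). Between treatments in the hippocampus the markers summed to 11620 to 13910 CPM with tamoxifen and 10440 to 10550 CPM in controls, and per 1000 marker counts 59.9% of all genes were lower with tamoxifen without overlap. Gfap, at 47.4 and 60.2 with tamoxifen and 63.5 and 71.1 in controls, was 1 of 5 members among them, with Vim, Serpina3n, Timp1 and S1pr3. Lcn2 by this measure was at 0.0438 and 0.0509 in hippocampal tamoxifen samples and 0.00915 and 0.0271 in controls, and in the cortex at 0.0803 and 0.0434 with tamoxifen and 0.00201 and 0.0199 in controls. Lcn2 did not overlap in either region, where 4.18% of all genes were higher with tamoxifen by this measure in the hippocampus and 62.7% in the cortex, while Cd44 overlapped in the hippocampus, at 0.202 and 0.329 with tamoxifen and 0.253 and 0.200 in controls.

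**Figure D3:**
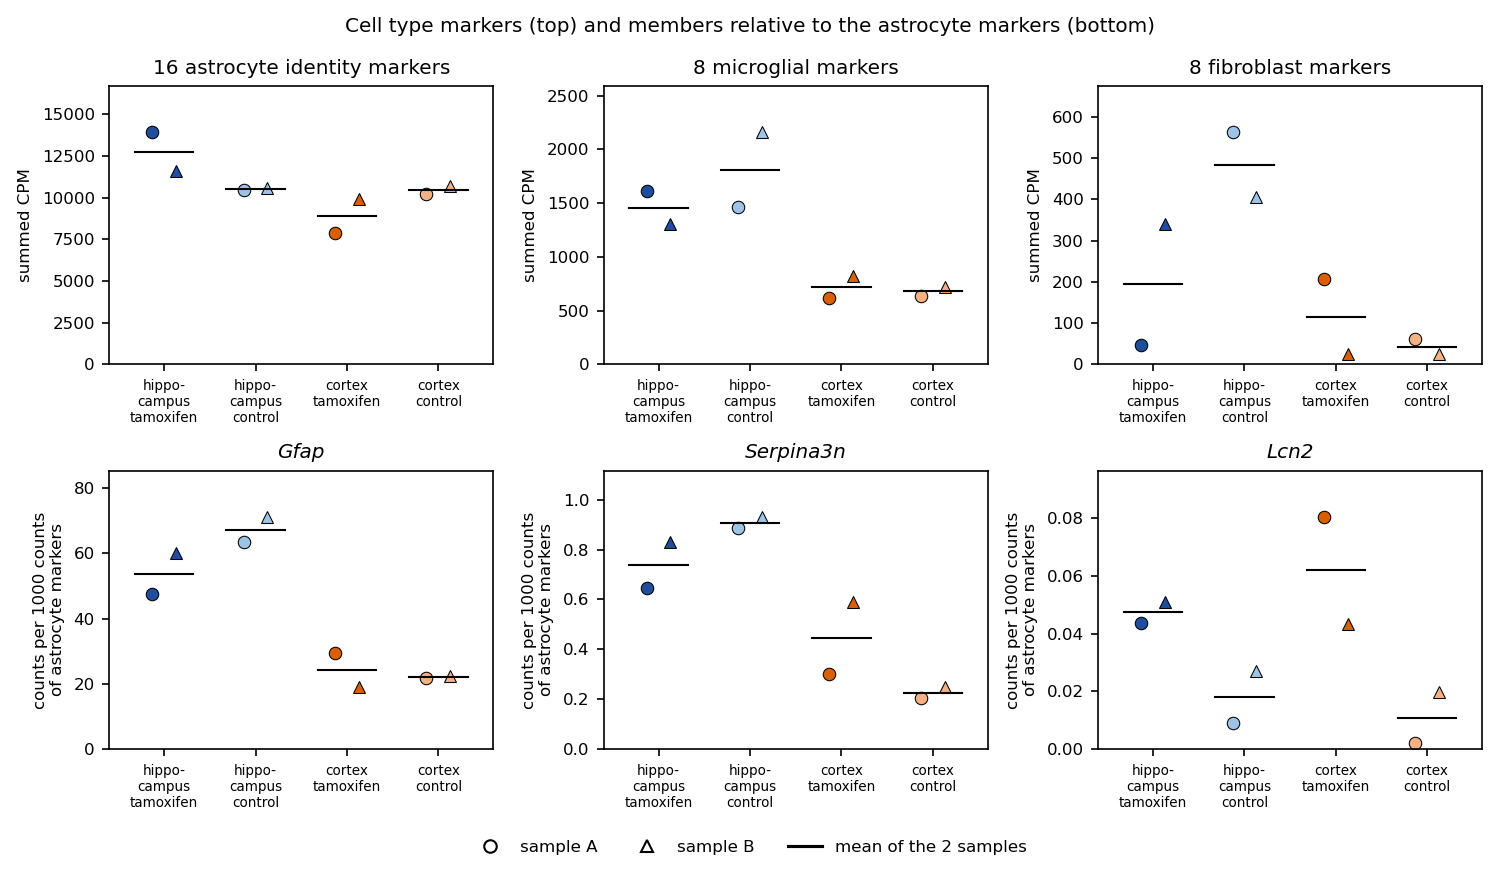
Top row, summed CPM of 16 astrocyte identity, 8 microglial and 8 fibroblast markers per sample; bottom row, Gfap, Serpina3n and Lcn2 per 1000 counts of the astrocyte markers (linear axes from 0). Circles are sample A, triangles sample B and bars their mean; astrocyte markers of the controls lie at 10440 to 10550 CPM in the hippocampus and 10200 to 10670 CPM in the cortex before TMM scaling, and Gfap per marker count is 3.05 times as high in hippocampal controls as in cortical ones.

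Markers of some other cell types differed between the regions too. In controls, 8 microglial markers summed to 1464 to 2157 CPM in the hippocampus and 640 to 721 CPM in the cortex. Of these, 6 of 8 passed as higher, as did 2.71% of all genes. Of 8 fibroblast markers, Dcn and Lum passed, with sums of 406 to 563 CPM in hippocampal controls and 24.7 to 61.2 CPM in cortical controls. Of 8 mural markers 1 passed (sums of 519 to 576 CPM in hippocampal and 330 to 341 CPM in cortical controls), and of 8 leukocyte markers 3 passed of 6 tested (sums of 43.4 to 63.7 CPM in hippocampal and 15.5 to 19.7 CPM in cortical controls). All 8 markers of each of the first 3 lists were above 0 in every group, and among leukocyte markers Ngp was at 0 in hippocampal controls. Endothelial markers summed to 588 to 751 CPM in hippocampal and 575 to 636 CPM in cortical controls. Oligodendrocyte markers summed to 45970 to 72650 CPM and 52920 to 53300 CPM in the same groups. Neither list had a marker that passed, nor did that of choroid plexus and ependyma, whose sums are given above. Among markers of oligodendrocyte precursors, Cspg4 passed as higher (0.83, edgeR adjusted p = 0.033). The part of these cell types in the values of Serpina3n, Cd44 and the other members that are not specific to astrocytes was not tested.

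The wider reactive program was read from lists of related genes. Between the regions of controls 6.19% of all genes passed by edgeR, 2.71% as higher in the hippocampus and 3.48% as lower. An unadjusted p under 0.05 by edgeR was found for 27.6%, and DESeq2 called 17.7%. Of 5 further genes held to be induced in any reactive astrocyte, 0 passed there by edgeR, 2 had an unadjusted p under 0.05 and DESeq2 called 2. Of 11 tested genes of the reaction to inflammation, 0 passed by edgeR, 3 had an unadjusted p under 0.05 and DESeq2 called 3. Of 10 tested genes of the reaction to ischaemia, 3 passed, all higher in the hippocampus, with a list median of 1.04. They were Ptx3, a secreted pentraxin, with 39 and 23 counts in hippocampal controls and 2 and 2 in cortical controls (log2 fold change 3.28, SE 0.712, edgeR adjusted p = 0.0448), the surface protein Cd109 with 51 and 90 against 8 and 4 counts in the same groups (2.95), and Cd14, a lipopolysaccharide receptor of myeloid cells, with 13.9 and 25.7 against 4.89 and 5.65 CPM (1.53). These lists stem from other studies of astrocytes after systemic inflammation or stroke.

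Among 17 tested genes of interleukin 6 family signalling, 2 passed between the regions of controls, both higher in the hippocampus (2.71% of all genes). Osm, which encodes oncostatin M, the ligand of the Osmr receptor, stood at 2.64 and 4.39 CPM in hippocampal controls and 0.925 and 0.780 CPM in cortical controls (log2 fold change 1.67, SE 0.319, edgeR adjusted p = 0.0377). Il6ra, the receptor of interleukin 6, stood at 17.3 and 24.5 against 7.06 and 7.47 CPM in the same groups (1.14, edgeR adjusted p = 0.0386). In tamoxifen samples 0 of 17 passed between regions by edgeR. There 7 had an unadjusted p under 0.05 (21.6% of all genes) and 5 were called by DESeq2 (10.8% of all genes).

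Of 9 genes of sphingosine 1-phosphate turnover and its other receptors, 1 passed in controls, as higher in the hippocampus (2.71% of all genes). It was Sgpl1, the lyase that degrades this lipid, at 39.9 and 45.3 CPM in the hippocampus and 21.6 and 20.8 CPM in the cortex (0.63, edgeR adjusted p = 0.0408). Of 9 other intermediate filament and linker genes, 3 passed as lower in the hippocampus (3.48% of all genes), the opposite of Gfap: the neurofilament genes Nefm (-1.76, edgeR adjusted p = 0.0103) and Nefl (-0.91), and Plec (-0.72), which encodes a filament linker. Scaled to total counts, 1 of the 9 passed as lower. Nefm was also lower in the hippocampus in tamoxifen samples (-1.31, edgeR adjusted p = 0.0271). Of 8 neuronal markers all had negative values in controls and 0 passed edgeR's test. Of these, 4 had an unadjusted p under 0.05 (27.6% of all genes) and 4 were called by DESeq2 (17.7% of all genes).

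For the partners of Cd44, Lcn2 and Timp1, 1 of 11 tested hyaluronan and CD44 genes passed in controls, the CD44 ligand osteopontin gene Spp1, at 5.92 and 14.5 CPM in the hippocampus and 1.15 and 1.68 CPM in the cortex (2.48, edgeR adjusted p = 0.046). Of 11 tested metalloproteinases and inhibitors, 3 passed, the gelatinase gene Mmp2 (1.80), Mmp15, a membrane-bound metalloproteinase gene (1.41), and the inhibitor gene Timp2 (0.94), all higher in the hippocampus. Of all genes 2.71% passed as higher there. Slc22a17, which encodes a cell surface receptor for lipocalin 2, stood at 653 and 404 CPM in hippocampal controls and 149.5 and 133 CPM in cortical controls (1.51, edgeR adjusted p = 0.0481). In tamoxifen samples Mmp14, another membrane-bound metalloproteinase gene, passed between regions (0.92, edgeR adjusted p = 0.0474).

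**Figure D4:**
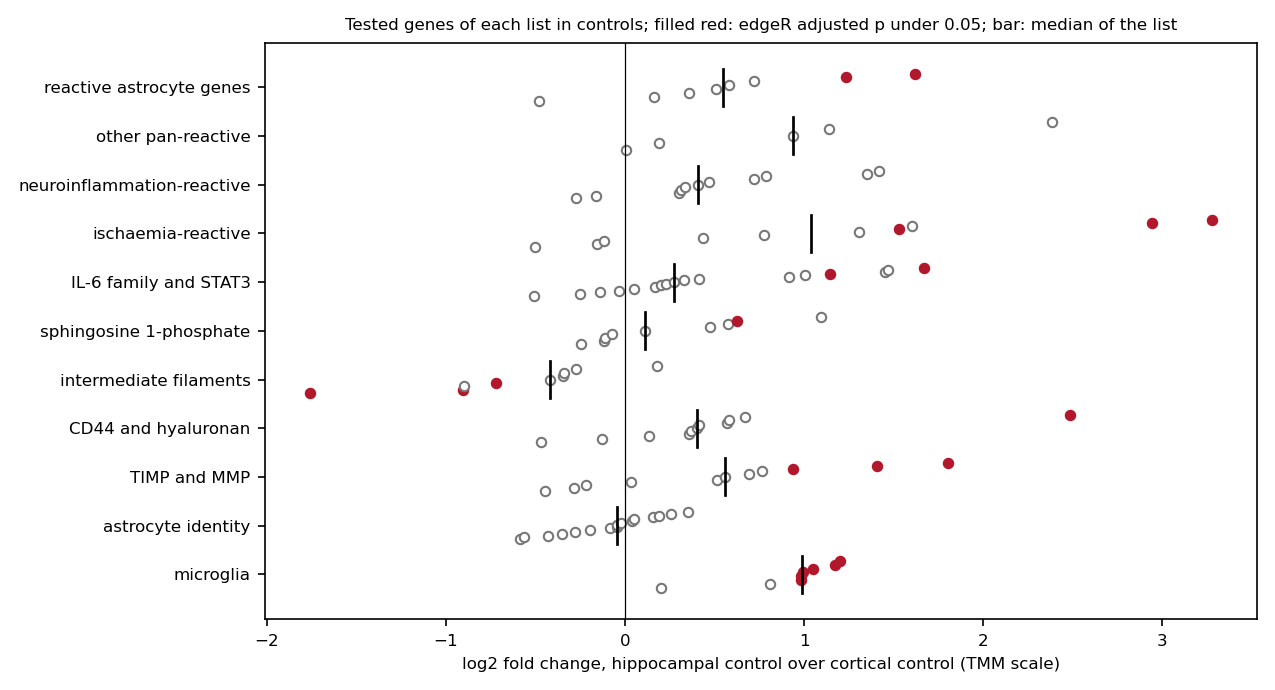
Log2 fold changes of hippocampal over cortical controls (edgeR, TMM scale) for every tested gene of 11 lists; filled red points are past the threshold and bars are list medians. The medians were 0.55 for the reactive astrocyte genes, 1.04 for the ischaemia-reactive genes, -0.05 for astrocyte identity genes and 0.99 for microglial markers.

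With tamoxifen, 0 genes of the 10 lists of related genes passed in either region by edgeR, and DESeq2 called 0 as well. In the hippocampus 3 of them had an unadjusted p under 0.05, where 3.61% of all genes did: Spp1 at -1.49 (SE 0.520), Sgpp1 at -0.38 (SE 0.147) and Nefm at 0.33 (SE 0.132). Whether the lists exceed that share was not tested. The other genes of smallest p there were Cxcl10 (-0.83) and Steap4 (-0.99) among the further reactive genes, Amigo2 (-0.69) and Iigp1 (0.65) of the inflammation list, Emp1 (-0.58) and Cd14 (-0.46) of the ischaemia list, and Il11 (1.02) and Cntfr (0.23) of interleukin 6 signalling. S1pr1 (0.31), Prph (0.50), Hyal2 (-0.37), Timp4 (0.36), Timp2 (-0.38), Slc22a17 (-0.73) and Serpina3g (0.45) completed them.

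In the cortex 5 genes of these lists had an unadjusted p under 0.05, where 4.97% of all genes did, and whether the lists exceed that share was not tested. Among the 5 were Mmp14, at 11.1 and 11.7 CPM in tamoxifen samples and 15.4 and 15.9 CPM in controls (-0.63, SE 0.151, edgeR adjusted p = 0.83), and S1pr4, another sphingosine 1-phosphate receptor gene, at 1.26 and 1.26 CPM with tamoxifen and 1.97 and 2.39 CPM in controls (-0.96, SE 0.331). Astrocyte identity genes had 16 of 16 negative values in the cortex, where 55.4% of all genes were positive. Of the 16, 12 had an unadjusted p under 0.05 (4.97% of all genes), led by Fgfr3 (-0.58) and the water channel gene Aqp4 (-0.62). In the hippocampus 15 of 16 were positive (48.7% of all genes), led by Slc4a4 (0.45) and Gja1 (0.36). Only Slc4a4, Gja1, Gjb6 and Ntsr2 had an unadjusted p under 0.05 there (3.61% of all genes). None of the 16 passed edgeR's test, and DESeq2 called 0 of 16 in either region. Scaled to total counts, the 16 cortical values stayed negative and 15 of 16 hippocampal ones positive. Other cortical values were Cxcl10 (0.97) and Hspb1 (-0.22), H2-T23 (0.32) and Amigo2 (0.44), Ptx3 (1.54) and B3gnt5 (1.06), Lif (-0.75) and Cntfr (-0.31), S1pr1 (-0.38), Ina (0.36) and Nes (-0.54), Has1 (1.42) and Rdx (-0.27), Timp2 (0.43), Slc22a17 (0.68) and Serpina3g (-0.73).

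Genes whose pattern over the 8 samples was closest to each member were found by the root mean square difference of log2(CPM + 0.5) values, centred per gene, over 12713 genes of at least 1 CPM. Closest to Gfap were Icam1 (0.161), Zc3h12a (0.171) and Csrnp1 (0.187), where the median gene stood at 0.756. Serpina3n was closest to Slit1 (0.112), Slc44a5 (0.157) and Nr4a3 (0.169), against a median of 0.690. Osmr was closest to Notch1 (0.0555), Map3k1 (0.0651) and Nid1 (0.0911), and S1pr3 to Sp110 (0.0629), Csf1 (0.0661) and Sgpl1 (0.0808). Vim was closest to Cdc14a, Esyt1 and Trim25 (0.0678 to 0.0725) and Cd44 to Zfp783, Fam227a and Krt1 (0.150 to 0.172). Among the members, Vim and Osmr were the closest pair (0.181), followed by Osmr and S1pr3 (0.194). Gfap's closest member was Osmr (0.368). All of these values share the depth and composition of the same 8 samples.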

How the data were processed

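Per the labels' protocols, total RNA was extracted with Trizol and checked on a Bioanalyser before sequencing. Per the submitters' processing notes, reads were aligned to mm10 with STAR and counted with HTSeq, with no versions and no strand setting stated there. The authors deposited, for each of 16 libraries, raw counts per gene and RPKM values; per the deposited files, the RPKM values equal counts over exon length and total reads for 100% of genes. Reads not assigned to a gene stayed out of the totals used for CPM and the tests, but are part of the totals behind the RPKM values. Among them were 27.5 to 35.4% of all counts as multimapped and 3.65 to 7.93% in no feature.

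Neighbouring libraries (1 with 2, 3 with 4) differed by 2.53 to 2.72 times Poisson variance at 20 to 200 counts (median over genes), against 3.63 to 12.9 times for other pairs of a group, and by 3.16 to 5.73 against 13.3 to 376 times at 2000 counts or more. They were not identical within counting noise, but much closer than other pairs, so they were added and counted as 1 sample. Counts of the 8 samples were filtered with filterByExpr and fitted with edgeR 4.0.16 in R 4.3.3 (TMM, robust quasi-likelihood, 1 mean per group, Benjamini-Hochberg adjustment). DESeq2 1.42.0, limma 3.58.1, other scalings, filters, replicate blocks and left-out samples were alternatives. The method was tested on simulated data, but the settings and outcome are not given here, so nothing rests on that test. Members and gene lists were chosen with earlier results of these data known. The text names all 8 members and the 3 genes closest to a member. Of each list it names up to 4 genes past the threshold or otherwise, between treatments, the 2 of smallest p. The leukocyte markers S100a8, S100a9, Ngp, Ptprc, Cd52, Lyz2 and Mrc1 are the exceptions.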

Additional observations from a re-analysis of the deposited data

How the results depend on the processing

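Under 16 separate libraries, scaling to total gene counts and a block for the replicate number, 5 members passed between the regions of controls in place of 2, and under a block for the sample letter 0 did. Between the regions of tamoxifen samples 0 members passed in the main fit, where 1.12% of all genes did. Scaled to total gene counts 1 member passed, where 22 of all genes were higher and 4 lower. Without mitochondrial genes in the total it was also 1, where 139 were higher and 42 lower. With no count filter or at least 1 CPM in 2 samples 1 member passed. DESeq2 called 4 members and 10.8% of all genes. Limma with correlated neighbouring libraries called 5 members, and 16 libraries or the replicate number as a block 6. Shares of all genes are not given here for the filters, correlated libraries and replicate number. Nothing particular to the members is drawn from these counts. Leaving out 1 sample or library gave 0 to 2 members between the regions of controls, 0 to 4 between those of tamoxifen samples and 0 to 3 for tamoxifen in the cortex. Deviations of same-numbered libraries correlated at 0.262 to 0.317 between the control regions, over 2 sample pairs, and at -0.581 to -0.571 between the tamoxifen ones. Between treatments they correlated at 0.491 to 0.515 in the cortex and at -0.300 to -0.204 in the hippocampus. The labels do not say that a number marks a shared animal or day, so the samples are known to share only a number. The letter block left 72 of all 1118 genes between the regions of controls, with an adjusted p by edgeR of 0.0862 for Gfap and 0.0546 for Serpina3n; crossed letters, tried after seeing the data, gave 2036. Of all genes, DESeq2 called 3193 and 16 libraries 6982 there, and 1946 and 5510 of the tamoxifen samples' 202; with 16 libraries 562 genes passed for tamoxifen in the cortex and 318 in the hippocampus, which treats near repeats as independent.

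Signs changed for small values (log2 scale). Scaled to total counts, tamoxifen gave 0.19 for Timp1 and 0.057 for S1pr3 in the cortex and -0.025 for S1pr3 in the hippocampus, a difference of effects of -0.15 for Cd44 and -0.081 for S1pr3, a mean effect of 0.016 for S1pr3, and 0.17 for Lcn2 between regions of tamoxifen samples. Without mitochondrial genes in the total these were 0.062 for Timp1 in the cortex, -0.0083 for S1pr3 in the hippocampus, -0.020 for the Cd44 difference and 0.16 for Lcn2 between regions. Timp1 in the cortex was 0.021 with limma voom, 0.059 with correlated libraries and 0.0090 with the letter block, and Lcn2 between regions of tamoxifen samples was 0.11 and 0.21 with the same limma settings. Upper quartile scaling gave 0.016 for Gfap and 0.039 for Serpina3n in the hippocampus. Serpina3n there was 0.0042 with RLE factors and with DESeq2, 0.0017 with the CPM filter, and 0.010 with correlated libraries, 0.012 with only the groups compared and 0.015 with crossed letters.

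Over the samples and libraries left out, cortical values of tamoxifen over control ran from -0.71 to 0.052 for Gfap, -0.77 to 0.026 for Vim, -0.33 to 0.40 for Timp1, -0.80 to 1.78 for Cxcl10, -0.77 to 0.18 for Hspb1, -0.63 to 0.0125 for Rdx and -6.41 to 0.40 for Serpina3g. Hippocampal ones ran from -0.15 to 0.11 for Gfap, -0.096 to 0.17 for Vim, -0.097 to 0.082 for Serpina3n, -0.18 to 0.35 for Osmr, -0.22 to 0.26 for S1pr3, -0.86 to 0.099 for Cd14 and -0.17 to 0.87 for Serpina3g. The difference of effects ran from -0.077 to 0.69 for Gfap, -2.86 to 0.65 for Lcn2, -0.20 to 0.31 for Cd44 and -0.065 to 0.41 for S1pr3. Lcn2 between regions ran from -0.69 to 2.81 in controls and -0.47 to 0.55 in tamoxifen samples, and the mean effect from -0.37 to 0.014 for Gfap, -0.37 to 0.028 for Vim and -0.18 to 0.053 for S1pr3. The cause of these changes was not tested. A lone sample is assumed to vary like the other groups.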
